A study of Mus musculus with 19 samples.

Results

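Liver tumours of 1 mouse model were divided by the level of 4 periportal genes, and the 5 tumours with the highest level (periportal-high) were compared with the 5 with the lowest (periportal-low). The 10 tumours came from a series of 19 liver samples, of which 13 are labelled as tumours. Tumours were selected on, and ranked by, the mean of log2(CPM + 1) of Sds, Hal, Cyp2f2 and Gls2, where CPM is the number of reads of a gene per 1000000 reads assigned to genes. The split was made from the same RNA libraries as the comparison, so the difference in those 4 genes is a description and was not tested, and genes that vary together with them across tumours are not independent of the split. All mice behind these libraries were male, heterozygous for Ctnnb1tm1Mmt, which yields an activated β-catenin once Cre has acted, and homozygous for Gt(ROSA)26Sortm1(MYC)Djmy, a human MYC transgene that Cre switches on. AAV8.TBG.PI.Cre.rBG, a virus that expresses Cre from the hepatocyte promoter TBG, was given at 640000000 genome copies per mouse. High and low tumours thus shared genotype, virus and dose, and differed by label only in their number. Ages were not given in the labels. Livers of the 2 control groups (3 samples each) were not used here, and no level is compared with normal liver.

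The liver lobule is zoned along its blood flow. Hepatocytes around the portal vein make urea and glucose and break down several amino acids, whereas those around the central vein make glutamine and much of the drug-metabolising cytochrome P450, a programme that depends on Wnt and β-catenin. Active β-catenin in hepatocytes is known to favour the pericentral programme and to silence periportal genes. The ranking genes are all periportal. Sds (serine dehydratase) and Hal (histidine ammonia-lyase) degrade serine and histidine, Gls2 is the liver glutaminase, and Cyp2f2 is a cytochrome P450 enriched around the portal vein.

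The ranking genes lie on 3 chromosomes of the mouse genome (GRCm38.p6 positions). Sds is at chr5:120476547-120483932, Hal at chr10:93488768-93516761, Gls2 at chr10:128194635-128210004 and Cyp2f2 at chr7:27119955-27133660. Promoter sequence from RefSeq was held for 2 of the 4, Hal and Cyp2f2, and the 250 bases before each start site are shown because these genes define the split. Both are on the plus strand, Hal at chr10:93488518-93488767 and Cyp2f2 at chr7:27119705-27119954, and capitals mark a match to a TCF motif, through which β-catenin acts.
Hal: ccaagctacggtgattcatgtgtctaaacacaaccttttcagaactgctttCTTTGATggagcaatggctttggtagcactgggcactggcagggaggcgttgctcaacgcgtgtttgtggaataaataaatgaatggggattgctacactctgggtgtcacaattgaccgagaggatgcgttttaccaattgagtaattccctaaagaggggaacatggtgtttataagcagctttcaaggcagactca
Cyp2f2: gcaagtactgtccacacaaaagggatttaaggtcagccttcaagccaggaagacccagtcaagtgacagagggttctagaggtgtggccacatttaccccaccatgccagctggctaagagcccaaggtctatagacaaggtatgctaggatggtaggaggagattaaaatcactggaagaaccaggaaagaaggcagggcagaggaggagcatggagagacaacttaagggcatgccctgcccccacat
The motifs searched on both strands were CTTTGAT and CTTTGAA for TCF and CAAAGTCCA for HNF4A, a hepatocyte transcription factor. The only match was CTTTGAT in Hal, 199 bases before the start. Of 32851 promoter windows of the same length, 7.48% held a TCF match and 0.384% an HNF4A match. Such a match is a run of letters and not a shown binding site.

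All 4 ranking genes were low in most tumours, and 2 tumours stood apart. Cyp2f2 was at 47.8 CPM in tumour 08, 31.2 in tumour 12, 4.30 in tumour 06, 3.94 in tumour 07 and 5.51 in tumour 10 of the high group. In the low group it was at 3.81 CPM in tumour 09, 2.38 in tumour 04, 2.65 in tumour 13, 0.869 in tumour 11 and 0.125 in tumour 05. Gls2 ranged from 2.17 to 19.3 CPM in the high group and from 0.931 to 1.40 in the low group. Tumours 08 and 12 thus held far more of both genes than any of the other 8. Hal was at 13.3 CPM in tumour 08 and 10.6 in tumour 12, between 1.45 and 2.67 in the other 3 high tumours and between 0.974 and 2.24 in the low tumours, so that the groups overlapped. Tumours 08 and 12 held 7.18 and 7.48 CPM of Sds, with 1.57 in tumour 06 and no more than 0.559 in the other 7. Tumour 05 had no Sds read, which allows a level of up to 0.187 CPM (3 counts).

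**Figure D1:**
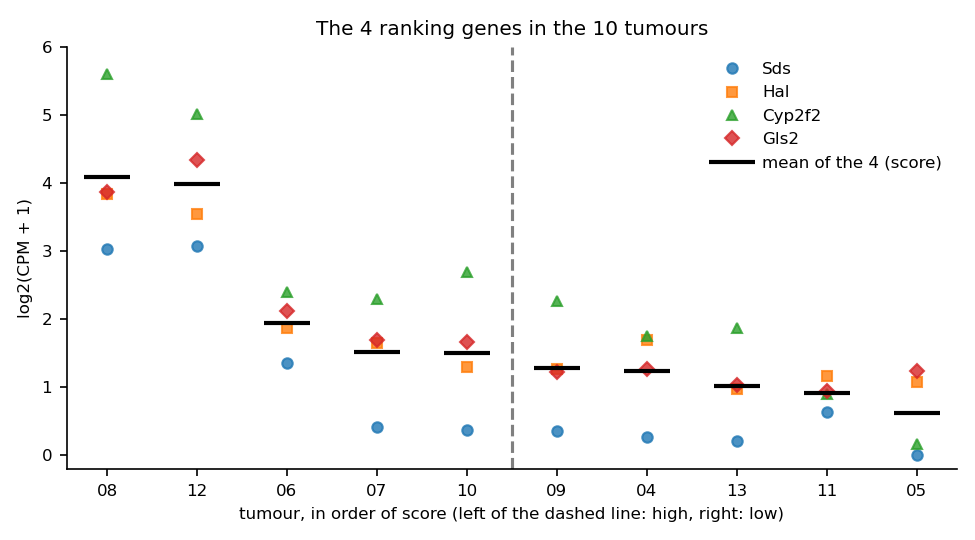
Level of Sds, Hal, Cyp2f2 and Gls2 in each tumour as log2(CPM + 1), with tumours in order of the mean of the 4 (black bars) and the split between high and low as a dashed line. The score was 4.09 in tumour 08 and 3.99 in tumour 12, and between 0.626 and 1.94 in the other 8.

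The ranking score was 4.09 in tumour 08, 3.99 in tumour 12, 1.94 in tumour 06, 1.52 in tumour 07 and 1.51 in tumour 10. It was 1.28 in tumour 09, 1.25 in tumour 04, 1.03 in tumour 13, 0.914 in tumour 11 and 0.626 in tumour 05. Tumours 10 and 09, on either side of the split, differed by 0.226, less than the SD within the low group (0.268, n = 5). For Gls2 the 95% counting intervals of these 2 tumours (Clopper-Pearson) were 1.59 to 2.91 and 0.808 to 2.10 CPM and overlapped, and those of the other 3 ranking genes also overlapped. These intervals cover counting error only, and their overlap does not show that 2 levels are equal. Whether the reads separate rank 5 from rank 6 was not tested. The widest gap in the ranking lies below tumour 12. For this reason the comparison was also made without tumours 08 and 12 (3 against 5) and with these 2 against the other 8, both chosen after the data were seen. The value without tumours 08 and 12 is given beside each log2 fold change and list median below that it turned in sign or moved by over 1.5 times. Likewise, where leaving out a single tumour did so, the lowest or highest value so obtained is given with that tumour. Across the 10 tumours the ranking genes had pairwise correlations (Pearson, log scale) of 0.899 to 0.967, a description of the genes that made the ranking.

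Column names of the count table carry a tag, and the labels do not say what it marks. Tumours 07 and 08 shared a tag, as did 09 and 10, 05 and 06, and 11, 12 and 13. Scores within a tag were close in some cases and far apart in others. Tumours 10 (1.51) and 09 (1.28), the neighbours at the split, shared a tag. Tumour 12 (3.99) shared its tag with tumours 13 (1.03) and 11 (0.914), tumour 08 (4.09) with tumour 07 (1.52), and tumour 06 (1.94) with tumour 05 (0.626). If a tag stands for a mouse, tumours of the same animal fell on both sides of the split, and p-values that treat the 10 tumours as independent may be too small. P-values here measure only the spread between these samples.

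Libraries held 11687034 to 36964427 reads in genes, so that 3 reads corresponded to 0.0812 to 0.257 CPM. Of 5 library measures compared by an exact two-sided permutation test (smallest possible p = 0.00794), none passed after adjustment. The share of reads in the 10 most abundant genes was 12.8% ± 1.68 in the high and 10.9% ± 0.788 in the low group (SD, n = 5 each; exact p = 0.0476, adjusted p = 0.238). Depth differed by less than its spread (exact p = 0.849, adjusted p = 0.984). Tumours 05, 06 and 07 stood apart in short RNAs that lack a poly(A) tail (Rpph1, Rmrp and 4 others), which summed to 61.0, 48.3 and 84.0 CPM there and to no more than 6.67 CPM in the other 7. These were 1 low and 2 high tumours, and the comparison was also made without them (3 against 4), an alternative chosen after the data were seen.

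No gene passed the test between periportal-high and periportal-low tumours. With edgeR's quasi-likelihood test and Benjamini-Hochberg adjustment over the 14217 genes that remained after leaving out low counts and the ranking genes, 0 genes were higher and 0 lower in the high group at an adjusted p under 0.05 (0% of all genes in each direction), and the smallest adjusted p was 0.9998. At an unadjusted p under 0.05, 110 genes (0.774%) were higher and 229 (1.61%) lower. Together these were a smaller share than the 0.05 that such a threshold passes on average when no gene differs. Limma-voom also called 0. DESeq2's Wald test called 2 genes higher, Wfdc21 and Aspg, and 6 lower, among them Ypel4, Krt20, Trim50, Itga3 and Apobr. The median log2 fold change of all genes was -0.02 and 47.0% lay above 0. Values of the 5 high tumours all lay above those of the 5 low tumours for 20 genes (0.141% of those tested) and all below them for 35 (0.246%). Every fold below is thus the size of a difference that did not pass the test over all genes in edgeR.

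The other periportal genes did not follow the ranking genes as a group. A list of 19 genes known from the portal side of the lobule had 12 members with a log2 fold change above 0 and 7 below, and 0 passed in either direction. Their median was 0.19 against -0.02 for all genes. Leaving out 1 tumour at a time gave medians from 0.017 (without tumour 08) to 0.56 (without tumour 09). Without tumours 08 and 12 the median was -0.15, with 6 of 19 above 0. With those 2 tumours against the other 8 it was 0.49, with 16 of 19 above 0, and again 0 genes passed. At an unadjusted p under 0.05 the list held 2 members, Pigr among them, both higher, beside 0.774% of all genes in that direction.

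Cps1 (chr1:67122426-67231267), which makes carbamoyl phosphate in the first step of the urea cycle, was at 180, 222, 123, 12.2 and 22.3 CPM in the high tumours (08, 12, 06, 07, 10) and at 202, 38.3, 12.1, 14.3 and 4.47 CPM in the low tumours (09, 04, 13, 11, 05), both in rank order. Tumour 09 of the low group thus stood beside tumours 08 and 12. A log2 fold change of 1.05 ± 1.02 (edgeR unadjusted p = 0.327) fell to 0.01 without tumours 08 and 12, and was 0.69 without tumour 12 alone and 2.71 without tumour 09. Pigr (chr1:130826684-130852249), which carries IgA and IgM across epithelia, reached 154 CPM in tumour 08 and 107 in tumour 12, and was at 9.03 to 35.2 in the other 3 high tumours and at 5.16 to 35.5 in the low tumours. Its log2 fold change was 1.63 ± 0.73 (edgeR unadjusted p = 0.0463), and 1.04 without tumour 08 and 0.07 without those 2 tumours. Pck1, the gluconeogenic PEP carboxykinase, was at 363 to 391 CPM in tumours 08 and 12 and lowest of the high group in tumour 07, and its log2 fold change of 0.75 ± 0.80 turned to -0.028 without tumours 08 and 12 and was 0.48 without tumour 05 and 1.28 without tumour 11.

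Several genes with a known periportal gradient were nearly level between the groups. Fbp1, the gluconeogenic fructose bisphosphatase, was at 515 ± 110 CPM in the high and 506 ± 120 in the low group (SD, n = 5 each). Asl, the argininosuccinate lyase of the urea cycle, was at 244 ± 25.4 and 257 ± 35.1 CPM, and Ass1, the enzyme before it, at 26.7 ± 11.1 and 28.1 ± 12.2. Alb, the most abundant member, was at 18694 ± 3196 and 16414 ± 3476 CPM (log2 fold change 0.19 ± 0.21, 0.017 without tumours 08 and 12, 0.11 without tumour 12 alone and 0.32 without tumour 09). In the other direction Hsd17b6, a steroid dehydrogenase, was at 19.9 ± 18.7 CPM in the high and 102 ± 162 in the low group (log2 fold change -2.37 ± 1.14, edgeR unadjusted p = 0.0622), and 384 CPM in tumour 11 made most of the latter. Without tumour 11 its log2 fold change was -0.66.

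**Figure D2:**
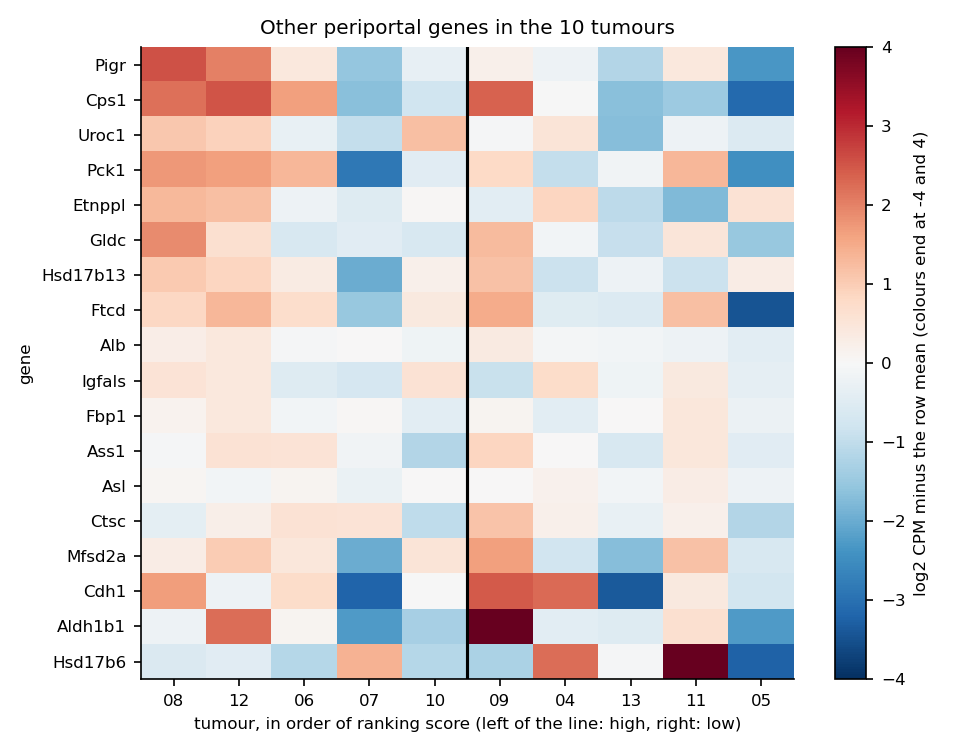
Level of 18 periportal genes that were not used for the ranking in the 10 tumours, as log2 CPM minus the mean of the row, with tumours in order of the ranking score and genes in order of their log2 fold change. Pigr and Cps1 were above their row mean in tumours 08 and 12, Cps1 was as high in tumour 09 of the low group, and Fbp1, Asl and Alb varied little.

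Lists of amino acid and glucose metabolism had medians near 0 once tumours 08 and 12 were left out. The urea cycle list had 5 of 10 members above 0 and a median of 0.06 (-0.026 without tumours 08 and 12), with 1 member at an unadjusted p under 0.05. Enzymes of histidine, serine and glycine breakdown, the pathways of Hal and Sds, had 10 of 12 tested members above 0 and a median of 0.22, which was 0.02 without tumours 08 and 12. One of them, Uroc1 (urocanase), which acts directly after Hal, was at 33.5 ± 17.6 CPM in the high and 18.6 ± 9.07 in the low group (log2 fold change 0.85 ± 0.46, edgeR unadjusted p = 0.0892; 0.52 without tumours 08 and 12). Gluconeogenesis had 7 of 11 above 0 with a median of 0.10, which was -0.028 without tumours 08 and 12. All 11 tested genes of aromatic amino acid breakdown lay above 0, with a median of 0.33 and values from 0.08 to 0.41, and 7 of 11 did so without tumours 08 and 12, with a median of 0.04. Abundant members of the list were close between groups. Hpd was at 1802 ± 364 and 1695 ± 225 CPM, Hgd at 1377 ± 506 and 1302 ± 631, and Fah at 564 ± 65.2 and 464 ± 74.8 (log2 fold change 0.28 ± 0.15). None of these lists held a gene that passed the test in edgeR. Leaving out 1 tumour at a time gave medians from 0.013 (without tumour 12) to 0.23 (without 09) for the urea cycle, from 0.099 (12) to 0.36 (11) for histidine, serine and glycine breakdown, from 0.038 (13) to 0.26 (11) for gluconeogenesis, and 0.20 for aromatic amino acid breakdown without tumour 12.

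Pericentral genes, the opposite zone, did not have a lower median in the high group. Of 20 pericentral genes 16 had a log2 fold change above 0 and 4 below, with a median of 0.20, and 0 passed. Without tumours 08 and 12 the median was 0.09, and leaving out 1 tumour gave 0.061 (without 09) to 0.39 (without 11). Single tumours differed from this. Tumour 06 of the high group had the lowest mean log2 CPM of these genes among the 10 tumours. It was 8.75 there and 9.41 to 9.58 in the other high tumours. Glul, the glutamine synthetase that marks the cells next to the central vein, was at 14231, 12879, 11591, 9110 and 9229 CPM in the high tumours and at 5473, 14864, 8638, 8672 and 11000 CPM in the low tumours, in rank order. High levels of Glul occurred in both groups, and the groups overlapped (log2 fold change 0.23 ± 0.27; 0.037 without tumours 08 and 12, 0.083 without tumour 09 and 0.43 without tumour 04). Cyp2e1, which oxidises ethanol and other small molecules, was at 9900 ± 2521 CPM in the high and 7048 ± 1217 in the low group (log2 fold change 0.49 ± 0.22, edgeR unadjusted p = 0.0440; 0.30 without tumours 08 and 12). Oat, which converts ornithine, was at 10318 ± 3171 and 8254 ± 1745 CPM (log2 fold change 0.32 ± 0.25, and 0.16 without tumour 10), and Gulo, of vitamin C synthesis, at 2894 ± 759 and 2870 ± 810. Cyp2c29, the other pericentral gene at an unadjusted p under 0.05, was at 1220 ± 532 and 715 ± 138 CPM (log2 fold change 0.77 ± 0.30, edgeR unadjusted p = 0.0241; 0.31 with the tag family as a term), with 2006 CPM in tumour 07.

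Feedback targets of Wnt signalling had 8 of 14 members above 0 and a median of 0.06, which was 0.12 without tumours 08 and 12. Axin2, a negative regulator in the pathway, was at 158 ± 46.8 CPM in the high and 163 ± 44.7 in the low group. Nkd1 was at 359 ± 239 and 236 ± 65.9 CPM, Rnf43 at 171 ± 70.2 and 159 ± 87.3 and Tbx3 at 149 ± 13.4 and 163 ± 49.3, each with a difference smaller than the SD of at least 1 group. Genes of proliferation had 13 of 16 above 0 with a median of 0.18, which was -0.08 without tumours 08 and 12, and MYC targets of ribosome formation had 10 of 15 above 0 with a median of 0.09. Neither list held a gene at an unadjusted p under 0.05. Leaving out 1 tumour gave medians from -0.093 (without 07) to 0.24 (without 06) for Wnt feedback, from 0.071 (05) to 0.43 (13) for proliferation and from -0.067 (06) to 0.16 (10) for MYC targets.

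By number, bile acid genes held more members at an unadjusted p under 0.05 than any other list. These were 4 of 12, all higher in the high group, beside 0.774% of all genes in that direction. The oncofetal list held 3 of 9 tested, all lower, beside 1.61% of all genes. Lists and members were chosen with earlier results of these data known, so these counts are descriptions. None of these genes passed after adjustment. The bile acid list had 10 of 12 above 0 and a median of 0.42. That median was 0.11 without tumours 08 and 12, 0.25 without tumour 05, 0.28 without tumour 12 alone and 0.17 with the tag family as a term. Slc27a5 (chr7:12988346-12998192), a ligase that activates bile acids, was at 653, 654, 582, 640 and 536 CPM in the high tumours and at 328, 356, 514, 504 and 446 CPM in the low tumours, in rank order. The groups did not overlap, with tumour 10 at 536 just above tumour 13 at 514. The log2 fold change was 0.51 ± 0.16 (1.43-fold; edgeR unadjusted p = 0.00926), and 0.45 without tumours 08 and 12.

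Slco1a1 (chr6:141907281-141946962), an uptake transporter of organic anions and bile acids, was at 237, 209, 106, 283 and 133 CPM in the high tumours and at 108, 71.1, 98.5, 80.5 and 90.0 CPM in the low tumours. Only tumour 06 (106) lay below the highest low tumour, 09 (108). This gave a log2 fold change of 1.11 ± 0.26 (2.16-fold; edgeR unadjusted p = 0.00118), and 0.95 without tumours 08 and 12. The related transporter Slco1b2 was at 1504 ± 525 and 986 ± 153 CPM (log2 fold change 0.61 ± 0.26, edgeR unadjusted p = 0.0358; 0.29 with the tag family as a term), with 755 CPM in tumour 06. Baat, which joins bile acids to taurine or glycine, was at 76.9 ± 29.2 and 50.4 ± 12.8 CPM (log2 fold change 0.61 ± 0.26, edgeR unadjusted p = 0.0351; 0.24 without tumours 08 and 12 and 0.37 without tumour 12 alone). By contrast the bile salt export pump Abcb11 was at 543 ± 189 and 474 ± 115 CPM, and Cyp27a1, of the alternative synthesis route, at 662 ± 80.3 and 588 ± 145 (log2 fold change 0.17 ± 0.20, with 0.039 without tumour 09 and 0.27 without tumour 13).

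Male-biased liver genes, which depend on pulsed growth hormone, had the highest median of the hepatocyte lists, 1.12, with 8 of 11 above 0. Without tumour 08 this median was 0.70, without tumours 08 and 12 it was 0.10, and with those 2 against the other 8 it was 1.45. Serpina1e (chr12:103946931-103956897), an α1-antitrypsin of the mouse cluster, was at 117, 109, 48.3, 23.8 and 24.9 CPM in the high tumours and at 25.6, 8.15, 8.45, 12.2 and 0.944 CPM in the low tumours. Tumours 08 and 12 were highest, and only tumour 09 of the low group reached the range of the high group. Serpina1e had a log2 fold change of 2.55 ± 0.71 (5.86-fold; edgeR unadjusted p = 0.00420), and 1.57 without tumours 08 and 12. Serpina1e belongs to a family of near-identical genes, as do Mup3 and Cyp2d9. Reads that aligned to more than 1 place were held in a summary line and left out. The levels of these genes thus rest on the reads that aligned to 1 place. Cyp2d9 was at 394 ± 259 and 182 ± 85.4 CPM (log2 fold change 1.12 ± 0.59, and 0.45 without tumours 08 and 12). Cyp4a12a was at 121 ± 79.5 and 78.0 ± 27.6 CPM (0.64 ± 0.62, 0.285 without tumour 12 and 0.046 without both). Cyp7b1 was at 57.2 ± 17.9 and 68.3 ± 50.7 CPM and Mup3 at 74.0 ± 75.0 and 26.7 ± 31.5. Of Mup3, tumours 08 and 12 held 111 and 189.5 CPM and the other high tumours 15.5 to 28.1. The low tumours held 0.378 to 71.8 CPM of it.

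**Figure D3:**
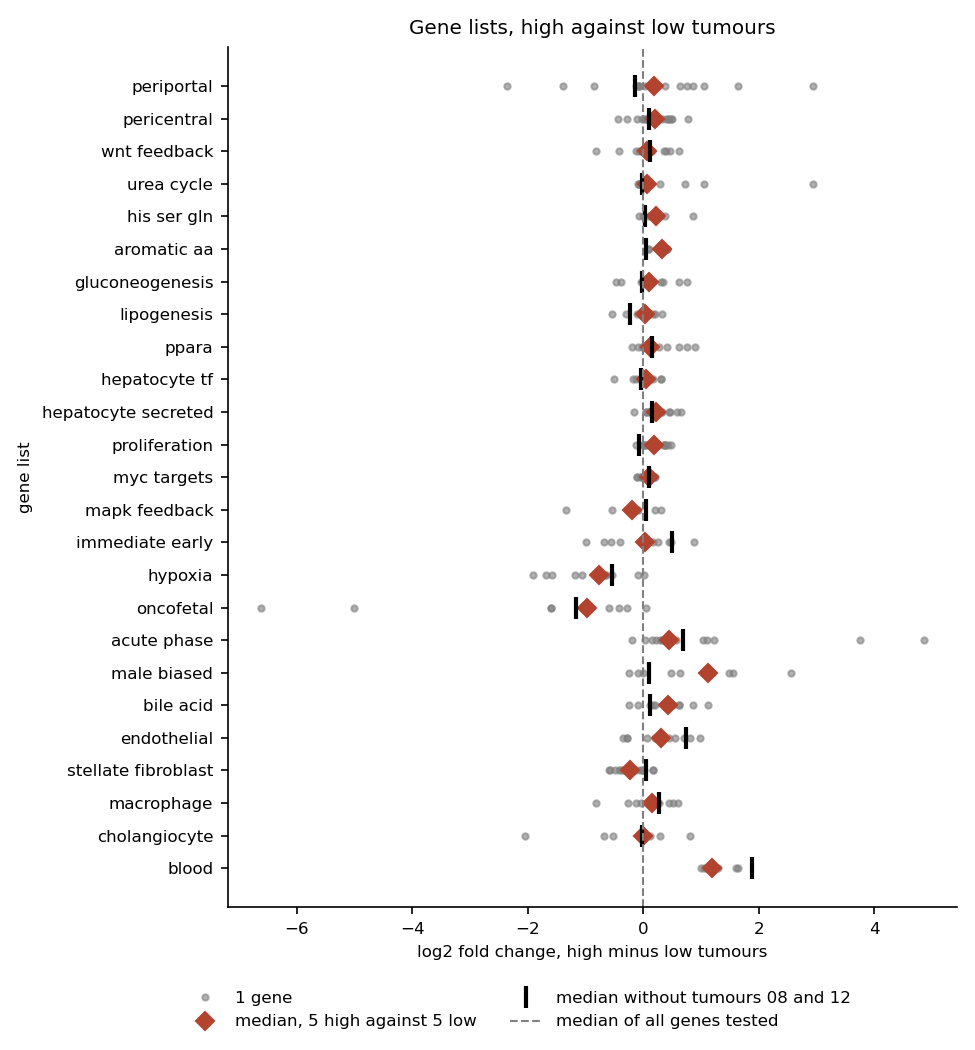
Log2 fold change (high minus low tumours) of each tested gene in 25 lists (grey points), the list median (red diamonds) and the median without tumours 08 and 12 (black bars). Medians of the male-biased, hypoxia and oncofetal lists lie farthest from 0 among lists of hepatocyte or tumour genes (1.12, -0.76 and -0.97), and the black bar of the male-biased list is at 0.10. Leaving out tumour 05 (not drawn) moves the hypoxia median to -0.12, nearer to 0 than those of the bile acid list (0.25), aromatic amino acid list (0.25) and acute phase list (0.65) under the same setting.

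Oncofetal genes and hypoxia genes had the lowest medians, each nearer to 0 without 1 tumour (09 and 05). Of 9 tested oncofetal genes 1 was above 0, with a median of -0.97 that was -0.46 without tumour 09, and 3 were lower at an unadjusted p under 0.05, beside 1.61% of all genes in that direction. H19, an imprinted RNA of fetal liver, was at 131, 91.7, 77.9, 9.96 and 5.16 CPM in the high tumours and at 7202, 14.8, 2870, 99.2 and 1.64 CPM in the low tumours, in rank order. Igf2, its imprinted neighbour and a fetal growth factor, was at 0.676 to 5.85 CPM in the high tumours and at 1538, 0.421, 4.51, 1.75 and 0.0629 CPM in the low tumours. The high levels were thus those of tumours 09 and 13 for H19 and of tumour 09 alone for Igf2, and the other low tumours lay within or below the range of the high group. For H19 the log2 fold change was -5.01 ± 1.84 (edgeR unadjusted p = 0.0196). For Igf2 it was -6.62 ± 2.30 (edgeR unadjusted p = 0.0148), and it became 0.83 without tumour 09. Igf2bp3, an oncofetal RNA-binding protein, was more even, at 4.96 ± 2.29 CPM in the high and 9.78 ± 2.92 in the low group (log2 fold change -0.97 ± 0.36, edgeR unadjusted p = 0.0200). Afp was at 12.8 ± 5.92 and 38.5 ± 52.6 CPM (log2 fold change -1.60 ± 0.93, -0.39 without tumour 13 and -0.32 with the tag family as a term) and Cd44 at 25.9 ± 12.0 and 39.0 ± 16.0 (-0.59 ± 0.41, and -0.33 without tumour 12).

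Of 11 tested hypoxia genes 10 were below 0, with a median of -0.76. Without tumour 05 this median was -0.12, and without tumours 08 and 12 it was -0.54. Vegfa, the angiogenic growth factor, was at 78.8, 88.3, 169, 116 and 110 CPM in the high tumours and at 134, 109, 77.3, 115 and 519 CPM in the low tumours, in rank order. Tumour 05 held far more than any other and the remaining 9 overlapped. Vegfa had a log2 fold change of -0.76 ± 0.48 (edgeR unadjusted p = 0.143), and it became 0.048 without tumour 05. Egln3, a prolyl hydroxylase induced by low oxygen, was at 58.6 ± 18.1 CPM in the high and 122 ± 88.4 in the low group (log2 fold change -1.06 ± 0.47, edgeR unadjusted p = 0.0448), with 219 CPM in tumour 09 and 217 in tumour 05. Ldha was at 891 ± 307 and 945 ± 311 CPM and Pdk1 at 142 ± 24.7 and 140 ± 94.6. Acute phase genes were above 0 in 13 of 14, with a median of 0.44, which was 0.68 without tumours 08 and 12, 0.70 without tumour 07 and -0.42 without tumour 06. Saa1 was at 878 CPM in tumour 06 and at 1.79 to 30.1 in the other 9 tumours. Its log2 fold change of 3.75 ± 1.59 became -0.84 without tumour 06, and that of Saa2, the adjacent and similar gene, went from 4.85 ± 1.84 to -0.36.

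The genes named next had the smallest unadjusted p among those with no overlap between groups and a mean of at least 1 CPM, and none passed after adjustment; 8 are given on the higher side and 6 on the lower side. On the higher side Aspg (chr12:112106683-112127573), an asparaginase, was at 8.34, 5.88, 2.81, 1.11 and 1.25 CPM in the high tumours and at 1.03, 0.140, 0.515, 0.250 and 0.252 CPM in the low tumours. The values followed the ranking score at the top, and tumours 07 and 10 lay just above tumour 09. Reads were few, with 2, 4 and 4 in tumours 04, 05 and 11, 12 in tumour 07 and 16 in tumour 09. The log2 fold change was 3.13 ± 0.69 (8.73-fold; edgeR unadjusted p = 0.000819), and 1.97 without tumours 08 and 12. Slc27a5, given above, is also of this set. Pdilt, a relative of protein disulphide isomerase, was at 10.1 ± 1.58 and 4.93 ± 1.74 CPM (log2 fold change 1.04 ± 0.26).

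The other 5 genes on this side differed by less. Adtrp, a hydrolase of fatty acid esters, was at 131 ± 20.1 and 90.1 ± 8.99 CPM (log2 fold change 0.54 ± 0.14). Rbpms2, an RNA-binding protein, was at 37.1 ± 5.12 and 25.7 ± 3.56 CPM (0.53 ± 0.14). Park7 (DJ-1), a protein of the oxidative stress response, was at 224 to 229 CPM in the high tumours and at 159 to 198 in the low tumours (0.32 ± 0.11). Cptp, a ceramide phosphate transfer protein at chr4:155864723-155869440, was at 31.2 ± 3.58 and 22.5 ± 3.35 CPM (0.47 ± 0.14). Its neighbour Ints11 at chr4:155869547-155889103, a subunit of the Integrator complex, was at 45.5 ± 5.20 and 34.9 ± 4.53 CPM (0.38 ± 0.13).

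On the lower side Ypel4 (chr2:84734011-84738655), of the yippee-like family, had the smallest p of all named genes. It was at 2.25, 1.24, 2.33, 1.94 and 2.51 CPM in the high tumours and at 7.19, 9.55, 5.28, 10.7 and 3.59 CPM in the low tumours. All high tumours were at or under 2.51 and all low tumours at or over 3.59, with a log2 fold change of -1.82 ± 0.33 (3.53-fold lower; edgeR unadjusted p = 0.000187; -1.67 without tumours 08 and 12).

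Krt20, a keratin of intestinal and other epithelia, was at 0.299 to 0.627 CPM in the high tumours and at 10.3, 4.78, 2.47, 1.19 and 0.755 CPM in the low tumours, in rank order (log2 fold change -3.02 ± 0.68). Trim50, an E3 ubiquitin ligase, was at 0.894 ± 0.717 and 6.13 ± 3.50 CPM (-2.79 ± 0.67), and Tmem116 at 1.28 ± 0.683 and 7.35 ± 8.94, with 23.3 CPM in tumour 04 (-2.51 ± 0.68, and -1.39 without that tumour). The other genes of the set act in adhesion and the cytoskeleton. Itga3, the α3 integrin that binds laminin, was at 22.9 ± 2.40 and 40.6 ± 9.55 CPM (-0.83 ± 0.17, edgeR unadjusted p = 0.000490). Limk1, a kinase that acts on cofilin, was at 12.7 ± 2.50 and 23.9 ± 6.95 CPM (-0.91 ± 0.22).

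**Figure D4:**
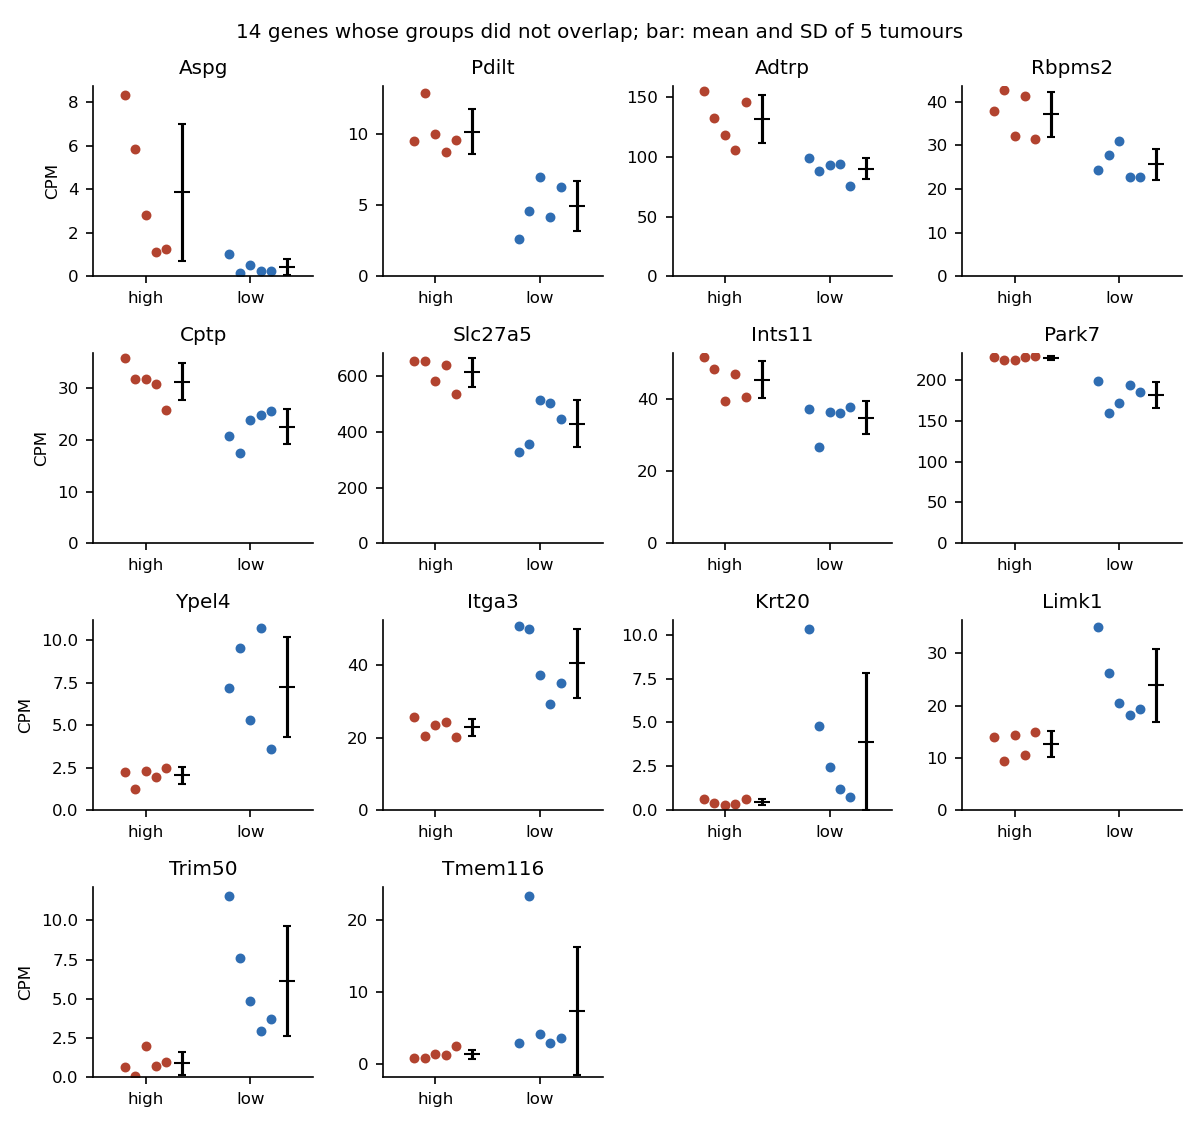
CPM of 14 genes with small unadjusted p among those whose high (red) and low (blue) tumours did not overlap, with tumours in rank order from left to right within a group and the mean and SD of 5 tumours as a black bar. Every red point lies above every blue point in the first 8 panels and below in the last 6; none of these genes passed the test over all genes in edgeR.

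The remaining 2 genes called by DESeq2 alone were named after their values were seen. Wfdc21, a secreted WAP-domain protein, was at 16.6, 8.41, 24.8, 1.84 and 2.22 CPM in the high tumours and at 2.12, 0.281, 0.515, 0.313 and 0.629 CPM in the low tumours, and tumour 07 lay below tumour 09. Its log2 fold change in edgeR was 3.81 ± 0.84 (unadjusted p = 0.000766). Apobr, a lipoprotein receptor of macrophages, was at 4.16 ± 1.61 and 50.2 ± 73.0 CPM, with 180 CPM in tumour 04 (-3.59 ± 0.87, edgeR unadjusted p = 0.00163; -2.10 without that tumour).

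Within families of tags the 14 named genes could be compared in 2 sets, with 2 high and 3 low tumours in one and 1 high and 2 low tumours in the other. Aspg differed by 2.19 and 3.32 log2 CPM in these sets, Ypel4 by -2.01 and -1.30, and Slc27a5 by 0.43 and 0.55. Pigr, which overlapped, differed by 1.03 and 1.68. H19 went opposite ways, by -5.85 and 3.94. With the whole tag as a term in edgeR, a fit added after the data were seen that compares high with low tumours of the same tag, no gene passed and the 14 named genes kept their direction. The log2 fold changes that this fit moved by over 1.5 times were larger in size for Cps1 (3.08), Glul (0.48), Cyp4a12a (1.25) and Cd44 (-1.03). They were smaller for Ints11 (0.22), Tmem116 (-1.34), Hsd17b6 (-0.53), Slco1a1 (0.66), Cyp2c29 (0.38), Afp (-0.80), Igf2 (-0.50), Saa1 (1.07) and Saa2 (1.46).

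With only the family of tags as a term, again no gene passed in edgeR. Beside Cyp2c29, Slco1b2 and Afp, given above, the log2 fold changes that became smaller by over 1.5 times were those of Slco1a1 (0.68), Cyp27a1 (0.069), Vegfa (-0.39), H19 (-1.91), Igf2 (-3.83), Saa1 (2.08) and Saa2 (2.72). Those of Pck1 (1.25) and Cyp4a12a (1.06) became larger. The list medians that turned from above to below 0 included those of the Wnt feedback (-0.20), gluconeogenesis (-0.016), lipogenic (-0.23), immediate early (-0.53), endothelial (-0.47) and red blood cell (-1.67) lists.

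Markers of other cells differed between single tumours more than between the groups. In bulk RNA, fewer cells of a type and less RNA per cell cannot be told apart. Summed over 13 endothelial genes, the level ranged from 100.2 to 626 CPM in the high and from 90.1 to 394 in the low group, with tumours 07 and 09 highest in each, and 10 of 13 genes were above 0 with a median of 0.30, which was 0.74 without tumours 08 and 12, 0.71 without tumour 09 and -0.28 without tumour 07. The 7 red blood cell genes summed to 128 to 6197 CPM in the high and 104 to 1799 in the low group, and 6 of 6 tested were above 0 with a median of 1.20, which was 1.88 without tumours 08 and 12, 2.11 without tumour 09 and -1.49 without tumour 07. Hbb-bs, a β-globin, was at 3508 CPM in tumour 07 and 1192 in tumour 09. Stellate cell and fibroblast genes summed to 278 to 1688 and 295 to 1948 CPM (3 of 12 above 0, with a median of -0.24 that was 0.044 without tumours 08 and 12, -0.53 without tumour 07 and 0.39 without tumour 09), macrophage genes to 144 to 429 and 158 to 364 (7 of 11) and bile duct genes to 103 to 216 and 106 to 241 (4 of 8). Of 12 lymphocyte genes 1 was abundant enough to test, and their sum did not exceed 9.13 CPM in any tumour. Tumour 07, which had the lowest Cps1 and Pck1 of the high group, was the one with the most endothelial and globin RNA. The part of these cells in the differences given here was not tested.

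**Figure D5:**
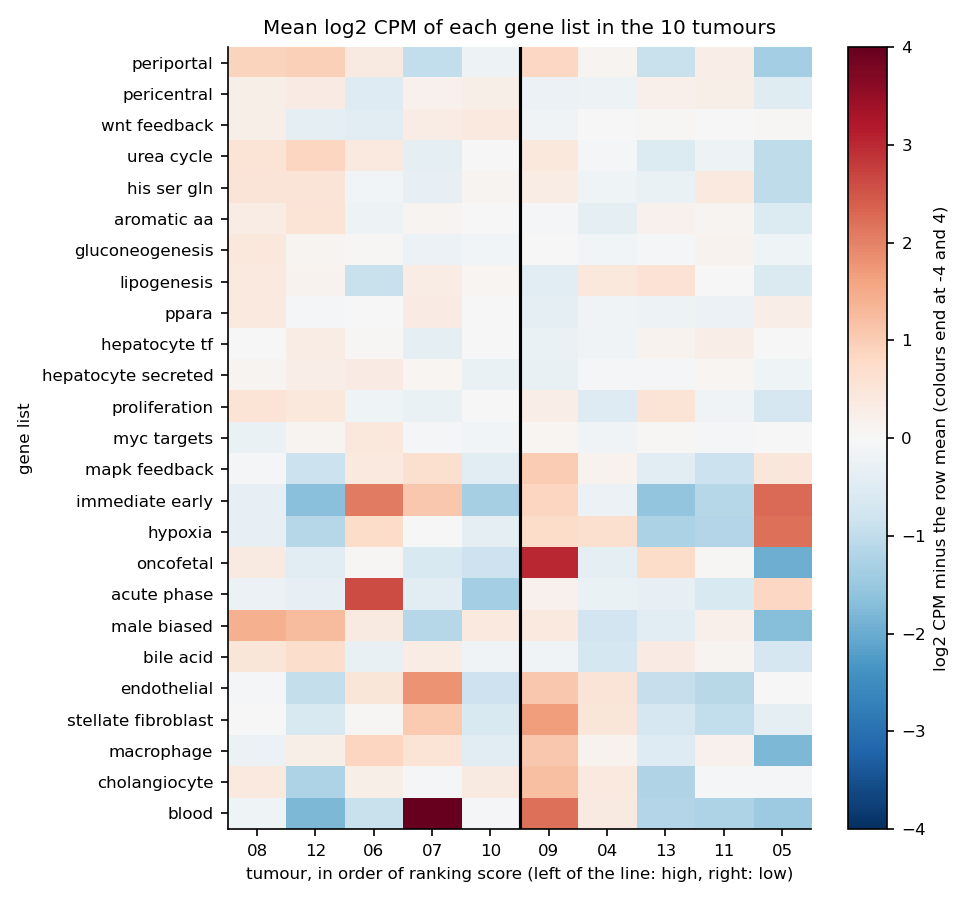
Mean log2 CPM of the tested genes of each of 25 lists in the 10 tumours, minus the mean of the row, with tumours in order of the ranking score. Blood and endothelial genes are highest in tumour 07, oncofetal genes in tumour 09, acute phase genes in tumour 06 and hypoxia genes in tumour 05, while male-biased genes are highest in tumours 08 and 12.

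Secreted hepatocyte proteins were above 0 in 14 of 15 with a median of 0.22 (0.15 without tumours 08 and 12), and hepatocyte transcription factors in 8 of 12 with a median of 0.04 (-0.040). PPARα targets were above 0 in 8 of 12 with a median of 0.12 and lipogenic genes in 7 of 11 with 0.03 (-0.23 without tumours 08 and 12). MAPK feedback genes were above 0 in 2 of 9 with a median of -0.20 (0.042 without tumours 08 and 12). No member of any of these lists passed in edgeR. Leaving out 1 tumour gave medians of 0.11 (without 09) for secreted proteins, -0.024 (09) to 0.088 (11) for transcription factors, 0.031 (08) to 0.29 (05) for PPARα targets, -0.096 (05) to 0.23 (13) for lipogenic genes and up to 0.11 (09) for MAPK feedback genes. With tumours 08 and 12 against the other 8, the medians that turned from above to below 0 included those of the Wnt feedback list (-0.11), MYC targets (-0.090), acute phase genes (-0.59), endothelial genes (-1.02), immediate early genes (-1.57) and red blood cell genes (-2.96).

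Immediate early genes, which respond within minutes to growth factors and stress, followed single tumours. The sum over the list was 3481 CPM in tumour 05, 2609 in tumour 06 and 1420 in tumour 07, and 261 to 1041 CPM in the other 7. The tumours with the most of this RNA were thus those with the most short RNA without a poly(A) tail. Of 11 tested genes 6 were above 0, with a median of 0.03 that was 0.87 without tumour 05, -0.77 without tumour 06, -0.54 without all 3 of these tumours and 0.49 without tumours 08 and 12. No member passed in edgeR. Without tumours 05, 06 and 07 no gene passed in edgeR, and the medians that turned from above to below 0 included those of the MYC target (-0.089), acute phase (-0.22), endothelial (-0.88) and red blood cell (-1.75) lists. The periportal, pericentral, bile acid, male-biased, hypoxia and oncofetal medians moved by less than 1.5 times. Log2 fold changes that moved more were those of Glul (0.37), Cyp4a12a (1.04), Cyp27a1 (0.0904), Vegfa (-0.23), Saa1 (-0.81) and Saa2 (-0.56).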

How the data were processed

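The authors deposited 1 table of raw read counts per gene, not normalised, from polyadenylated RNA. The submitters' processing notes name TopHat2, HTSeq and GRCm38 without versions; whether counting used strand is not given in the sources used here. The 5 summary lines, 51.7 to 66.0% of each column, were left out. A column was matched to a tumour where its number occurred in a single title (10 tumours), which assumes that the numbers correspond; 9 columns were not used. Symbols were found for 34196 of 39179 identifiers (87.3%) in GENCODE M39. Positions are RefSeq's on GRCm38.p6, matched by symbol.

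Ranking used log2(CPM + 1) on summed gene counts; all other CPM used TMM library sizes. Counts were filtered with filterByExpr and tested with edgeR 4.0.16 (glmQLFTest; R 4.3.3, limma 3.58.1) over the 10 tumours; the 3 ranking genes that remained were left out before adjustment. Log2 list scores used a prior count of 2. The script was tested on simulated data. It recovered 37% of 100 genes changed 2-fold and 90% of 100 changed 4-fold, with 7 false calls. Genes with low counts were not among those changed. A 2-fold difference between the groups could thus be missed. DESeq2 1.42.0 was an alternative. Named genes were, as none passed, the 8 per direction with the smallest unadjusted p among genes without overlap, with a mean of at least 1 CPM and an ordinary symbol, and up to 4 most abundant members per list; others (Cps1, Pigr, Ass1, Uroc1, Hsd17b6, Cyp2c29, Slco1a1, Baat, Serpina1e, Igf2bp3, Hbb-bs, Saa1, Saa2) were chosen after their values were seen. Some genes that this rule selects are not reported here. Members and lists were chosen with earlier results of these data known. Plots were drawn in Python with matplotlib.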

Additional observations from a re-analysis of the deposited data

Results flagged for a closer look

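Within the high and low groups, the gap between the most extreme tumour and its nearest neighbour, as a share of the group's range, was computed for 25 list scores and the 14 named genes. It exceeded the 5% critical value for 5 samples (0.71) in 6 of 78 cases, where chance gives about 3.9. Tumour 06 was the lowest high tumour for pericentral genes (0.798) and lipogenic genes (0.769) and the highest for acute phase genes (0.715). Tumour 12 was the lowest high tumour for bile duct genes (0.718). Tumour 04 was the lowest low tumour for Ints11 (0.872) and the highest for Tmem116 (0.829).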

How the results depend on the processing

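The count of genes past the threshold stayed at 0 in each direction under another scaling, other low-count filters, leaving out each tumour in turn (range 0 to 0), leaving out ranks 5 and 6, a continuous score, tag family or the Rpph1 set as a term, limma-voom with the tag as a block, and the added settings with the whole tag as a term, without tumours 05, 06 and 07, without tumours 08 and 12 or with these against the other 8. DESeq2's Wald test gave 2 higher and 6 lower; the cause was not tested. Membership was the same 5 high tumours under all 6 other scores, and 0 library measures passed with each tumour left out (range 0 to 0). Of 43 genes given with a fold change, 38 kept their direction under all 28 settings in which they were tested. Without tumours 08 and 12 the log2 fold change of Pck1 was -0.028. Leaving out 1 tumour at a time gave 0.48 to 1.28 for Pck1 (tumours 05 and 11), -0.97 to 0.048 for Vegfa (tumour 05 turned it), -6.94 to 0.83 for Igf2 (tumour 09), -0.84 to 4.28 for Saa1 and -0.36 to 5.61 for Saa2 (tumour 06). Igf2 was at 1.09 without ranks 5 and 6. With tumours 08 and 12 against the other 8, Saa1 was at -4.10 and Saa2 at -5.08, and without tumours 05, 06 and 07 at -0.81 and -0.56. Leaving out 1 tumour changed the sign of the median in 14 of 27 lists, among them the immediate early (-0.77 to 0.87), acute phase, endothelial, fibroblast, MAPK feedback and blood lists; the periportal, pericentral, bile acid, male-biased, hypoxia and oncofetal medians kept theirs, with -1.06 to -0.12 for hypoxia and 0.25 to 0.58 for bile acid genes. It moved the log2 fold change of 18 of the 43 genes by over 1.5 times or in sign; these values stand beside the genes above. No paired analysis was possible for the replicate numbers that tumours and controls share, because only tumour columns could be matched to samples; pairing of high and low tumours within a tag was covered by the fits with the tag as a term or block. Depth limits levels under 3 reads, which were 0.0812 to 0.257 CPM.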
